A study of Mus musculus with 14 samples.

Results

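The genes described here are 10 markers of macrophages and microglia, the resident phagocytes of the body and of the retina: Aif1, Csf1r, Cd68, Lyz2, Ptprc, Tyrobp, Itgam, Cx3cr1, Trem2 and Adgre1. They were taken by name from a table of 34452 mouse genes, all 10 were found, and all 10 passed the filter on low counts. The libraries were made from the retinal pigment epithelium (RPE), a monolayer between retina and choroid that supports the photoreceptors. All eyes were taken at postnatal day 20 from 7 rd1 animals, which lack functional Pde6b and lose their rods early in life.

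In each mouse, 1 eye had received AAV-Best1-Nrf2, an adeno-associated virus with the human Nrf2 (NFE2L2) gene, together with AAV-Best1-GFP, and the contralateral eye had received AAV-Best1-GFP alone. These groups are called Nrf2 and control, with 7 libraries each, and every animal in both was rd1. The Best1 promoter is meant to confine the transgene to the RPE. The Nrf2 eye also had 1 vector more than the control eye, packaged in a different capsid. RNA was taken from the eyecup after the retina had been removed, and no cells were sorted, so the libraries can hold RNA of neighbouring cells. In such bulk RNA, fewer cells of a type and less RNA per cell cannot be told apart.

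In the healthy eye, microglia live in the inner retina and macrophages in the choroid, and the space between photoreceptors and RPE is kept nearly free of both. When photoreceptors die, microglia and monocyte-derived macrophages migrate to the apical surface of the RPE, clear debris and switch from a resting to a phagocytic program. Their survival depends on the receptor Csf1r and its ligands Csf1 and Il34, and the switch to the phagocytic program depends on the lipid receptor Trem2 and its signalling adaptor Tyrobp.

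The transcription factor PU.1 (gene Spi1) drives many genes of this lineage and binds purine-rich DNA, so the promoters of the marker genes are shown first. RefSeq windows of the 250 bases before the transcription start (GRCm38.p6) were matched for 7 of the 10 genes. The letters GAGGAA or GGAAGT, the core and the 3′ part of the PU.1 site, were searched on both strands, and they overlap where the second follows within the first. GAGGAA was found before the start of 5 of the 7 genes and in 23.3% of the 32851 windows of all genes. GGAAGT was found before 2 of the 7 genes and in 19.7% of all windows. At least 1 of the motifs was found before 6 of the 7 genes and in 36.7% of all windows. Csf1r, Tyrobp and Adgre1 were not matched. The counts are per gene and the shares per window, and Ptprc had 2 of the 8 windows searched. Both lay inside the GENCODE span of Ptprc, and the match of Aif1 lay inside the span of Aif1. The windows below belong to Trem2, Lyz2 and Cd68, which varied together in these libraries, and to Itgam, which did not vary with them. Each is written 5′ to 3′ on the strand of the gene, with the searched letters in capitals, and bases inside the GENCODE span of the gene are left out.
Trem2, chr17:48346151-48346400, plus strand: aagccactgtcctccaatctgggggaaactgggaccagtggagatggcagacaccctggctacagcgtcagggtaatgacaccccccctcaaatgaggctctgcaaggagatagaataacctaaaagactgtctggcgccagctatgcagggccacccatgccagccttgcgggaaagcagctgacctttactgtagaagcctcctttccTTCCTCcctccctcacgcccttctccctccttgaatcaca
Lyz2, chr10:117282322-117282522, minus strand: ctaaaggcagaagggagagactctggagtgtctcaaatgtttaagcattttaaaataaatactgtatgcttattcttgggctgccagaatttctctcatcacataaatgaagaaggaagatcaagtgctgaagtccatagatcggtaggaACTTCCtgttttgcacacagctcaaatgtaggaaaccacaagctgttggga
Cd68, chr11:69666171-69666420, minus strand: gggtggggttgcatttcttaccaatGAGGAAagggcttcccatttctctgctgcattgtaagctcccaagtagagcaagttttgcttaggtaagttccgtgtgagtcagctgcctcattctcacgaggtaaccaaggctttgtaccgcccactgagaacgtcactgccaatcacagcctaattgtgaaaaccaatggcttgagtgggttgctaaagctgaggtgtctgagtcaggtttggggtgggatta
Itgam, chr7:128062390-128062639, plus strand: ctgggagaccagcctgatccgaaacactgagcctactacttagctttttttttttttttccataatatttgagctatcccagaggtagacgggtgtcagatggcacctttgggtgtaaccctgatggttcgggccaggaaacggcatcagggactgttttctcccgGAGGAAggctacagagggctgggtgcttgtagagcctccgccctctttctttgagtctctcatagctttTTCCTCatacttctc
The searched letters were present before both kinds of gene, once each for Trem2, Lyz2 and Cd68 and at 2 places for Itgam. A match is a string of letters and not evidence that the factor was bound.

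Total counts ranged from 16548349 to 50543008 per library, and levels are given as CPM, counts scaled to a library total of 1e+06. The vector transcript NFE2L2 was at 1163 CPM in the libraries labelled control 3 and Nrf2 4 alike, at 1.12 to 175 CPM in the other control libraries and at 4577 to 8711 CPM in the other Nrf2 libraries. Across the 10 marker genes, the level in Nrf2 4 was from 0.783 to 1.10 times the level in control 3. Targets of Nrf2 were also nearly equal in them, with the glutathione synthesis gene Gclc at 577 and 580 CPM, Srxn1 at 468 and 447 CPM and Hmox1 at 199 and 192 CPM in control 3 and Nrf2 4. It is therefore in doubt whether these 2 libraries hold what their labels say, and a swap or mixture was not tested. Both libraries were kept in their labelled groups and are called by their labels throughout, and the results that rest on them are also given without mice 3 and 4. The labelled tissue was checked by its markers, and the summed level of 10 RPE genes was 11979 to 24671 CPM in Nrf2 and 5593 to 27059 CPM in control libraries. One of the 10, Rpe65, the isomerase of the visual cycle, passed the test and was lower in Nrf2 eyes, at 134 to 1063 CPM against 752 to 2220 CPM (log2 fold change -2.17, edgeR adjusted p 0.020). The macrophage and microglia markers were minor transcripts beside these, with a summed level of 144 to 443 CPM in Nrf2 and 241 to 399 CPM in control libraries.

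When compared per length, as TPM over the merged exons of each gene, the highest of the markers in control eyes were Csf1r at 91.9 ± 33.5 TPM and Itgam at 53.9 ± 26.7 TPM (SD, n = 7). They were followed by Tyrobp at 32.7 ± 34.5, Cd68 at 32.3 ± 15.8 and Lyz2 at 28.7 ± 26.3 TPM (SD, n = 7). The remaining markers were lower, with Cx3cr1 at 4.21 ± 2.69, Aif1 at 3.68 ± 2.65, Trem2 at 2.85 ± 3.58, Adgre1 at 1.71 ± 1.58 and Ptprc at 0.369 ± 0.173 TPM (SD, n = 7). In this order Lyz2 was above Cx3cr1, and Adgre1 above Ptprc, in 7 of 7 control libraries. Each of the other neighbours in the order changed places in at least 1 control library, and differences between neighbours were not tested. In Nrf2 eyes, Lyz2 at 103 ± 94.0 TPM and Tyrobp at 91.9 ± 86.3 TPM had the highest means, and Csf1r at 48.4 ± 22.7 and Itgam at 29.2 ± 17.5 TPM (SD, n = 7) came after Cd68. The level of Ptprc per length is a low estimate, since merging its annotated exons gave 18313 bases. The order per length rests on such merged lengths for all markers. For Trem2 merging gave 4946 bases and for Aif1 1532 bases. In CPM Trem2 was above Aif1 in control eyes, with means of 4.91 and 1.95.

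To determine whether the markers differed between Nrf2 and control eyes, the 2 eyes of each mouse were compared with the quasi-likelihood test of edgeR. The mean tendency was upward for 8 markers and downward for 2. Trem2 and Lyz2 had the largest estimates, at 4.34-fold and 3.80-fold higher in Nrf2 eyes, and Csf1r and Itgam had negative estimates. None of the 10 passed an adjusted p of 0.05, a threshold that 559 of 16289 genes (3.43%) passed. At an unadjusted p under 0.05 there were 4 of the 10 (Csf1r, Trem2, Lyz2 and Adgre1), against 18.1% of all genes. DESeq2 called 3 of the 10, Trem2 and Lyz2 higher and Csf1r lower, against 11.9% of all genes, and voom with sample quality weights called none, against 15.9% of all genes. At an unadjusted p under 0.05 voom had 2 of the 10, both with negative estimates, against 35.6% of all genes. The CPM ranges of the 7 Nrf2 and 7 control libraries overlapped for all 10 markers, as for most genes. The ranges did not overlap in 1.79% of all genes tested. The median log2 fold change was 0.82 over the 10 markers and -0.04 over all genes tested, of which 45.2% had a positive value.

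**Figure D1:**
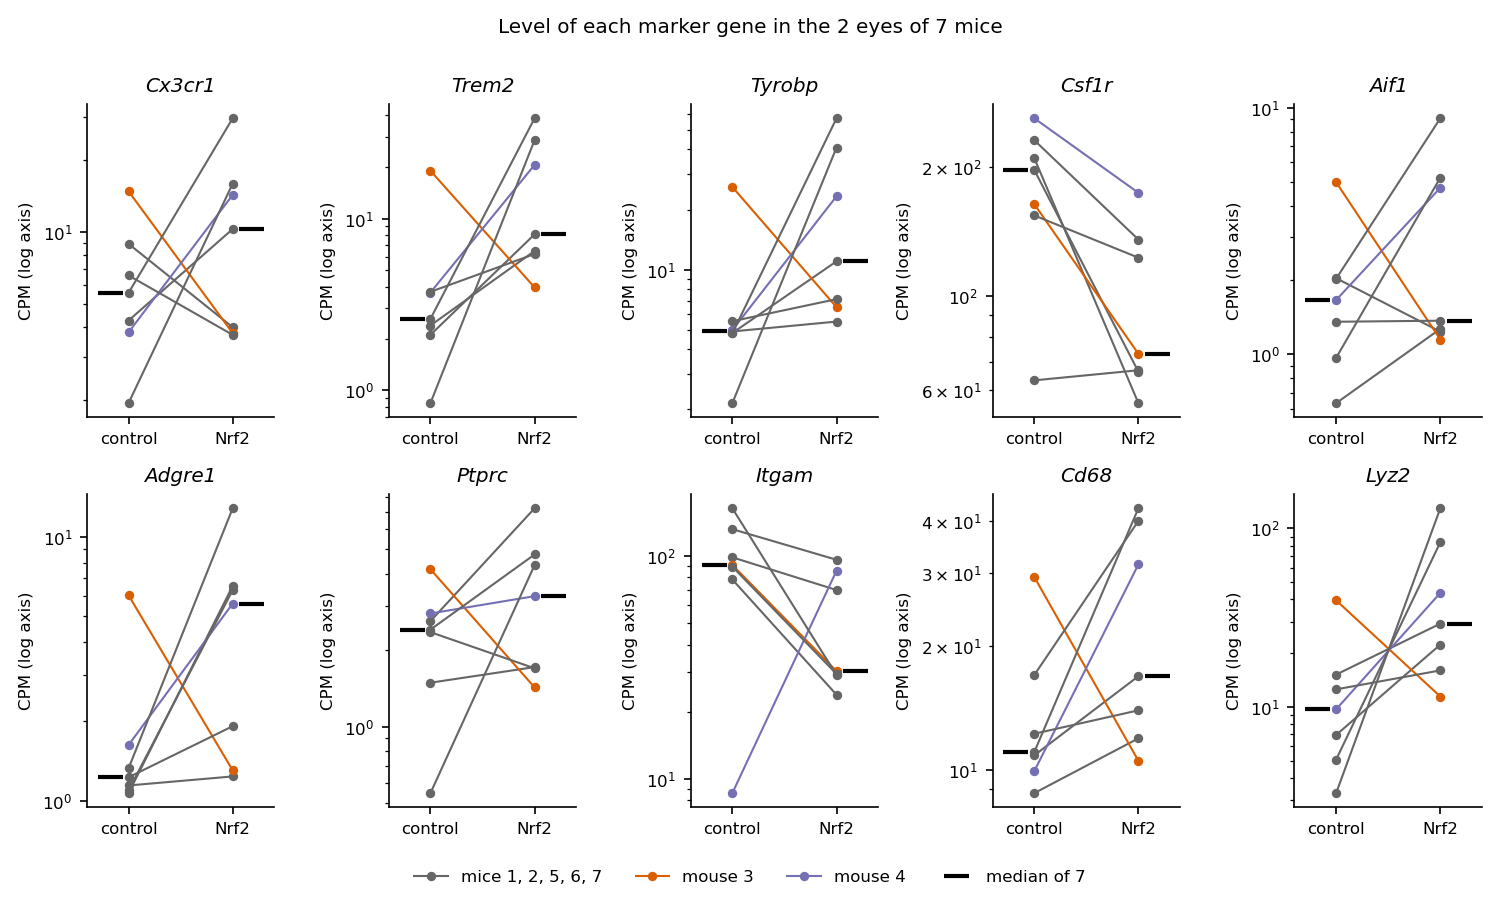
Level of each marker gene in CPM (log axis) in the control and the Nrf2 eye, with 1 line a mouse and the median of the 7 eyes as a black bar. Mouse 3 (orange) runs against the other mice for Trem2, Tyrobp, Lyz2, Cd68 and Adgre1, whose control 3 values are between 6.02 and 39.5 CPM, and mouse 4 (violet) runs against the other mice for Itgam.

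Trem2, a receptor for lipids and cell debris that marks phagocytic microglia, was at 3.97 CPM in the lowest, 8.10 in the median and 38.4 in the highest of the 7 Nrf2 libraries. In control libraries it was at 0.842 CPM in the lowest, 2.60 in the median and 18.99 in the highest. The highest control library was control 3, and the lowest Nrf2 library was Nrf2 3 from the same mouse, so the groups overlapped through this animal. The log2 difference between the eyes was 1.76, 1.85, -2.03, 2.62, 0.88, 4.97 and 3.95 in mice 1 to 7, so 6 of 7 mice had more Trem2 in the Nrf2 eye. The log2 fold change was 2.12 (SE 0.80, edgeR adjusted p 0.21), and the exact two-sided sign-flip test over the 7 mice gave p = 0.0781, where 0.0156 is the smallest value possible. Without mice 3 and 4 the ranges no longer overlapped, at 6.22 to 38.4 CPM in 5 Nrf2 and 0.842 to 3.75 CPM in 5 control libraries, with a log2 fold change of 2.65 (SE 0.67, edgeR adjusted p 0.074).

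Tyrobp, which carries the signal of Trem2 and of other surface receptors to the kinase Syk, followed Trem2 closely. It was at 5.50 CPM in the lowest, 11.01 in the median and 57.3 in the highest Nrf2 library, and at 2.15, 4.91 and 25.98 CPM in the lowest, median and highest control library. Again control 3 was the highest control library, and the groups overlapped. Its log2 fold change was 1.56 (SE 0.75, edgeR adjusted p 0.32), with 6 of 7 mice higher in the Nrf2 eye. Over the 14 libraries Pearson's r between Trem2 and Tyrobp on log2 CPM was 0.96, as a description of libraries that share their depth and their mice.

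Cx3cr1, the receptor for neuronal fractalkine that is high in resting microglia, had a smaller and less regular difference. Its levels were 3.73, 10.3 and 29.7 CPM in the lowest, median and highest Nrf2 library and 1.94, 5.57 and 14.8 CPM in the lowest, median and highest control library. The Nrf2 eye was higher in 4 of 7 mice, by a log2 difference of up to 2.97 in mouse 6, and lower in mice 1, 3 and 5. The log2 fold change was 0.82 (SE 0.67, edgeR adjusted p 0.55), and the differences in single mice ran from -1.74 to 2.97.

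Lyz2, the lysozyme of macrophages and granulocytes, had the widest span of the 10 genes on the log scale between the eyes of 1 mouse. It was at 11.4 CPM in the lowest, 29.2 in the median and 130 in the highest Nrf2 library, and at 3.28, 9.68 and 39.5 CPM in the lowest, median and highest control library. In mouse 6 the difference was 5.25 on the log2 scale, from 3.28 CPM in the control to 130 CPM in the Nrf2 eye. On average the log2 fold change was 1.93 (SE 0.81, edgeR adjusted p 0.26), and 6 of 7 mice were higher in the Nrf2 eye. Without mice 3 and 4 the ranges did not overlap, with 15.997 to 130 CPM in Nrf2 and 3.28 to 15.2 CPM in control libraries. Of all genes tested, 9.41% had ranges that did not overlap over these 5 mice. The near-identical gene Lyz1, to which reads of Lyz2 could have been assigned, was at no more than 0.277 CPM in any library.

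Cd68, a glycoprotein of lysosomes that rises as phagocytes fill with debris, was at 10.5, 16.9 and 42.9 CPM in the lowest, median and highest Nrf2 library. In control libraries it was at 8.79, 11.05 and 29.3 CPM. The difference was modest but of the same direction in 6 of 7 mice, with a log2 fold change of 0.82 (SE 0.37, edgeR adjusted p 0.29). Adgre1, which encodes the macrophage surface antigen F4/80, was at 1.24, 5.596 and 12.9 CPM in the lowest, median and highest Nrf2 library. In control libraries it was at 1.07, 1.23 and 6.02 CPM, and the 6 control libraries other than control 3 lay within 1.07 to 1.63 CPM. Its log2 fold change was 1.49 (SE 0.65, edgeR adjusted p 0.27), with 6 of 7 mice higher in the Nrf2 eye.

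The last of the genes with a positive estimate were Aif1 and Ptprc. Aif1, the actin-bundling protein known to histologists as Iba1, was at 1.15, 1.37 and 9.06 CPM in the lowest, median and highest Nrf2 library and at 0.634, 1.66 and 4.99 CPM in the lowest, median and highest control library. Its median was thus lower in Nrf2 than in control eyes, while its mean was higher, 3.43 ± 3.04 against 1.95 ± 1.44 CPM (SD, n = 7), because 3 Nrf2 libraries stood above 4 CPM. The log2 fold change was 0.79 (SE 0.58, edgeR adjusted p 0.50), with 5 of 7 mice higher. Ptprc, the phosphatase CD45 that is on all white blood cells, was at 1.43, 3.27 and 7.25 CPM in the lowest, median and highest Nrf2 library and at 0.547, 2.41 and 4.17 CPM in the lowest, median and highest control library. Its log2 fold change was 0.66 (SE 0.49, edgeR adjusted p 0.51). The fewest counts behind any marker value were 13 for Ptprc in control 6, 19 for Aif1 in control 2 and 20 for Trem2 in control 6, so that at this depth the low end of these genes is known only roughly.

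Csf1r and Itgam went the other way. Csf1r, the receptor that keeps macrophages and microglia alive, was at 56.0, 73.0 and 174 CPM in the lowest, median and highest Nrf2 library and at 63.3, 197 and 260 CPM in the lowest, median and highest control library. It was lower in the Nrf2 eye of 6 of 7 mice, and only in mouse 5, whose control library was the lowest control, was it slightly higher, by 0.24 on the log2 scale. The log2 fold change was -0.76 (SE 0.24, edgeR adjusted p 0.14), and the exact two-sided sign-flip test gave an unadjusted p of 0.0313, 1 of 10 such tests. The last exon of Csf1r shares 873 bases with Hmgxb3 on the opposite strand, and the amplification kit does not mark strand. Hmgxb3 was at 34.95 ± 5.94 CPM in Nrf2 and 36.1 ± 6.504 CPM in control libraries (SD, n = 7), and its estimate was 0.08 on the log2 scale (edgeR adjusted p 0.82).

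Itgam, the integrin chain CD11b that helps myeloid cells adhere and take up complement-coated material, was at 23.8, 30.4 and 96.1 CPM in the lowest, median and highest Nrf2 library. In control libraries it was at 8.62, 91.1 and 164 CPM, and control 4 was the library at 8.62. The Nrf2 eye was lower in 6 of 7 mice, with log2 differences from -2.51 to -0.30, and higher by 3.48 in mouse 4. Over 7 mice the log2 fold change was -0.80 (SE 0.62, edgeR adjusted p 0.53). Without mouse 4 it was -1.26 with an edgeR adjusted p of 0.027, the only call among the markers when 1 mouse was left out, in a fit that called 12.6% of all genes. The overlapping gene Gm49368 shares 3450 exon bases with Itgam but held no more than 1.05 CPM in any library.

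**Figure D2:**
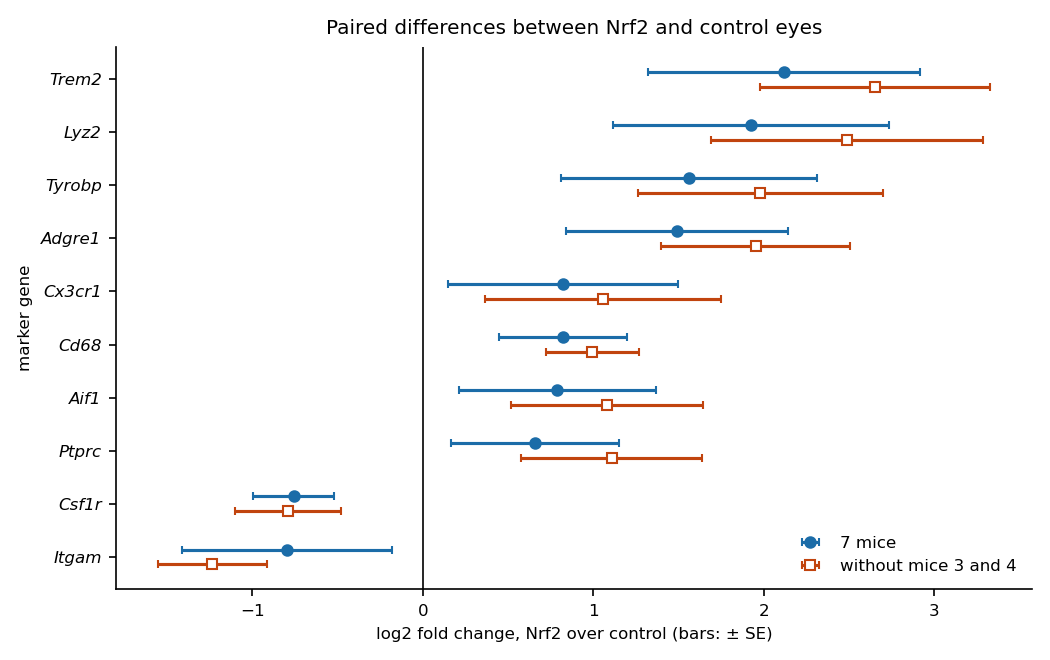
Log2 fold change (Nrf2 over control, bars ± SE) of each marker gene from the paired edgeR fit over 7 mice (filled circles) and without mice 3 and 4 (open squares). The estimates run from -0.80 for Itgam to 2.12 for Trem2, and all 10 lie farther from 0 without mice 3 and 4.

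With mice 3 and 4 left out, none of the 10 markers passed an adjusted p of 0.05 in edgeR, against 4.59% of all genes. At an unadjusted p under 0.05 there were 7 of the 10, against 21.7% of all genes. The adjusted p was 0.074 for Trem2, 0.078 for Itgam, 0.090 for Cd68 and 0.098 for Adgre1, and 0.13 to 0.45 for the other markers. In each of the 5 remaining mice, Trem2, Lyz2, Tyrobp, Cd68 and Adgre1 were higher and Itgam was lower in the Nrf2 eye, which makes 6 of 10 markers with 1 direction in 5 of 5 mice, against 24.4% of all genes. Under DESeq2 the same 5 mice gave 6 calls (Trem2, Lyz2, Tyrobp, Cd68 and Adgre1 higher, Itgam lower), against 16% of all genes. Leaving out only the libraries control 3 and Nrf2 4, without pairing, edgeR called 4 markers (Trem2, Lyz2, Tyrobp and Adgre1, all higher), against 9.37% of all genes. The log2 fold change of Trem2 in that fit was 2.71 (SE 0.59, edgeR adjusted p 0.011). Thus the calls of single markers depended on the tool and on which libraries of mice 3 and 4 were kept. Itgam was not called without control 3 and Nrf2 4 (edgeR adjusted p 0.30), a fit that kept control 4, its lowest library. The direction of each of the 10 was the same in every setting run.

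The 8 markers with a positive estimate varied together from library to library. Over the 14 libraries their 28 pairwise correlations on log2 CPM ranged from 0.50 to 0.96, with a median of 0.83. Nrf2 4, Nrf2 6, Nrf2 7 and control 3 were the 4 highest libraries for 6 of the 8 (Aif1, Cd68, Lyz2, Tyrobp, Cx3cr1 and Trem2). For Adgre1 and Ptprc, Nrf2 2 was among the 4 highest, in place of Nrf2 4. The 8 genes were put together by the sign of their estimates, so a higher sum in Nrf2 eyes was fixed by that choice and is given as a description. Over all 10 markers, among which Csf1r and Itgam were the most abundant in control eyes, the summed level had a median of 215 CPM in Nrf2 and 345 CPM in control libraries. The summed level of the 8 genes was 40.1 to 279 CPM in Nrf2 libraries, with a median of 85.0, and 27.8 to 45.6 CPM in the 6 control libraries other than control 3, which was at 144 CPM. Nrf2 1, Nrf2 3 and Nrf2 5, with vector transcript at 8711, 6735 and 4577 CPM, had sums of 59.9, 40.1 and 52.0 CPM, and Nrf2 6 and Nrf2 7, at 5484 and 8550 CPM of vector transcript, had sums of 271 and 279 CPM. Nrf2 2 and Nrf2 4, at 5868 and 1163 CPM of vector transcript, had sums of 85.0 and 147 CPM. Whether the sum was related to the vector level was not tested.

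**Figure D3:**
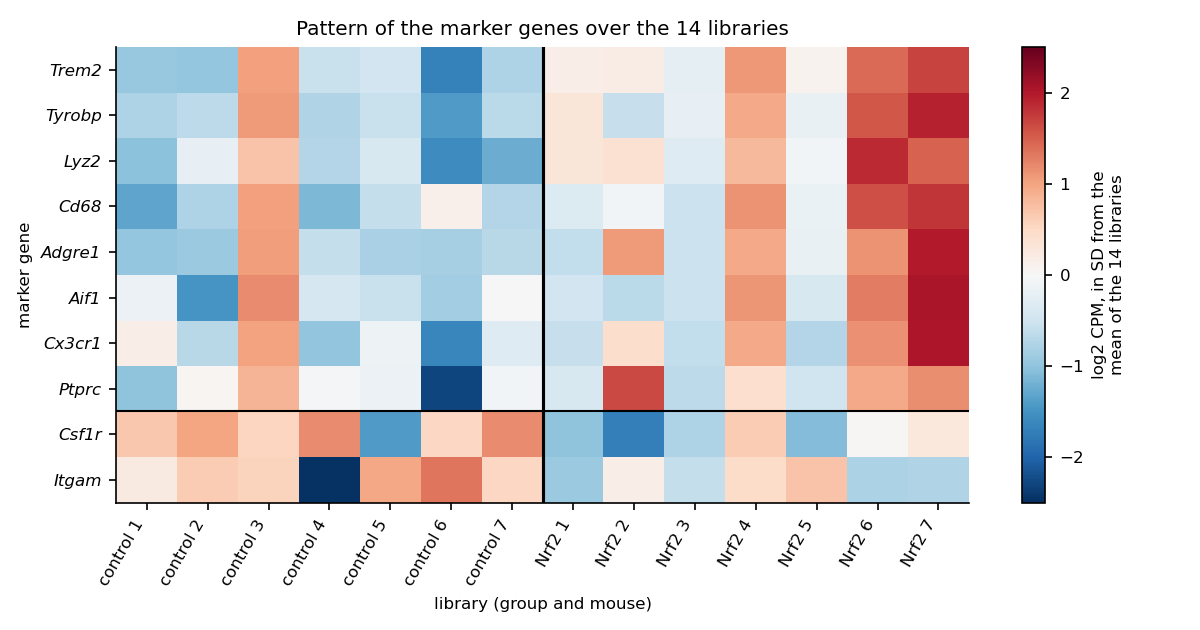
Log2 CPM of each marker gene in the 14 libraries, as the distance in SD from the mean of the gene over all libraries (red above, blue below), with control libraries on the left. Most of the upper 8 genes have their highest values in control 3, Nrf2 4, Nrf2 6 and Nrf2 7, and for Ptprc and Adgre1 Nrf2 2 stands above Nrf2 4. Csf1r and Itgam in the lower rows have another pattern each.

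Csf1r and Itgam shared neither this pattern nor each other's. Their correlations with the 8 genes ranged from -0.21 to 0.20 for Csf1r and from -0.29 to 0.02 for Itgam, and the correlation between them was -0.12 (Pearson's r on log2 CPM, 14 libraries). Among the 10 tested genes most like the mean of the 10 markers were Pld4, C1qb, Ctss, C1qa, Laptm5, C1qc, Gpr34 and Mpeg1, with Pearson's r from 0.98 to 0.94, and the marker Trem2 at 0.93. C1qa, C1qb and C1qc encode the complement protein C1q, which microglia produce, and Ctss encodes a lysosomal protease. The estimates of the genes named were positive, from 0.82 for Ctss to 2.12 for Trem2 on the log2 scale, and none passed an adjusted p of 0.05.

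The genes most like Csf1r and Itgam were looked up after their values had been seen. For Itgam they included Adh6a, Adgrf1, Muc20 and Kcnk6, with Pearson's r from 0.99 to 0.98, and the mucin Muc20 and the keratin Krt80 (r = 0.98) are known from surface epithelia. For Csf1r the closest were the channel subunit Kcnj8 (r = 0.90) and Rapgef3 (r = 0.89). Kcnj8 was itself lower in Nrf2 eyes (log2 fold change -1.59, edgeR adjusted p 0.033). None of the 10 genes closest to Csf1r or to Itgam was among the markers or in a macrophage list, so in these libraries both genes varied with other transcripts than the remaining 8 markers did.

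Other lists of the same lineage place these values. Of the 4 ligands, Csf1, which binds Csf1r, rose in Nrf2 eyes. It was at 16.3, 38.0 and 58.0 CPM in the lowest, median and highest Nrf2 library and at 9.64, 14.3 and 17.4 CPM in the lowest, median and highest control library. All 7 mice were higher in the Nrf2 eye, with a log2 fold change of 1.45 (SE 0.22, edgeR adjusted p 0.014), and the only Nrf2 library within the control range was Nrf2 4. The other ligands were picked afterwards. Il34, which also binds Csf1r, had a log2 fold change of 0.53 (SE 0.36, edgeR adjusted p 0.46), and the Cx3cr1 ligand Cx3cl1 one of -0.56 (SE 0.25, edgeR adjusted p 0.29).

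Of 14 genes induced in damage-associated microglia, 2 passed the test, both higher, against 3.43% of all genes. Of the 14 estimates, 9 were positive and 5 negative. Lpl, a lipase that releases fatty acids from lipoproteins, was at 249, 595 and 792 CPM in the lowest, median and highest Nrf2 library and at 73.9, 155 and 236 CPM in the lowest, median and highest control library, with no overlap. Its log2 fold change was 1.93 (SE 0.23, edgeR adjusted p 0.0093). Ctsd, the aspartic protease of lysosomes, averaged 21408 ± 7703 CPM in Nrf2 and 4491 ± 1546 CPM in control eyes (SD, n = 7). Its estimate was 2.36 on the log2 scale (SE 0.39, edgeR adjusted p 0.018). Both are also made outside macrophages, and RPE cells hold much cathepsin D. Which cells the RNA of Lpl and Ctsd came from was not tested. Their Pearson's r with the mean of the 8 markers was 0.61 for Lpl and 0.52 for Ctsd. In Nrf2 1 the 8 markers summed to 59.9 CPM and Lpl was at 609 CPM. In Nrf2 7 the 8 markers summed to 279 CPM and Lpl was at 792 CPM. Spp1 and Cst7, singled out after their values had been seen, had an r of 0.95 each and estimates of 2.43 (SE 0.81, edgeR adjusted p 0.16) and 3.18 (SE 1.24, edgeR adjusted p 0.22). The median log2 fold change of the 14 genes was 0.44. Without mice 3 and 4, edgeR called 3 of them higher, with Clec7a as the third, and 2 lower, against 4.59% of all genes. The median was then 0.53. The lower calls were the galectin Lgals3, with a log2 fold change of -1.60 (SE 0.26, edgeR adjusted p 0.025), and the fatty acid binding protein Fabp5, with one of -0.94 (SE 0.17, edgeR adjusted p 0.034). Over 7 mice these 2 genes had estimates of -1.09 (edgeR adjusted p 0.36) and -0.60 (edgeR adjusted p 0.61).

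Among 10 genes of homeostatic microglia, which mark the resting state, none passed the test and all 10 estimates were positive, with a median of 0.43. Selplg, a selectin ligand that is among the most abundant of the list, had an estimate of 0.16 (SE 0.35, edgeR adjusted p 0.85). P2ry12 and Tmem119, the classical resting markers, named here after their values had been seen, had estimates of 0.33 (SE 0.76, edgeR adjusted p 0.86) and 0.08 (SE 0.49, edgeR adjusted p 0.95). They were present in all libraries, at 1.20 to 21.5 CPM for P2ry12 and 2.42 to 16.7 CPM for Tmem119. Whether Trem2 and the resting markers differed in their response was not tested.

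Of 9 tested signalling partners of these receptors none passed, with a median of 0.59, and the most abundant were Sirpa, an inhibitory receptor, at 0.48 (SE 0.15, edgeR adjusted p 0.15), and the kinase Lyn at -0.48 (SE 0.38, edgeR adjusted p 0.53). Of 8 transcription factors none passed, with a median of 0.53, and Runx1, among the most abundant, was at -0.49 (SE 0.62, edgeR adjusted p 0.72). Spi1, which encodes PU.1 and was singled out afterwards, had an estimate of 1.37 (SE 0.68, edgeR adjusted p 0.33) and an r of 0.83 with the mean of the 8 markers. Of 13 tested Fc and scavenger receptors and related genes none passed, with a median of 0.97, and the most abundant were Cyba, a subunit of the phagocyte oxidase, at 0.36 (SE 0.23, edgeR adjusted p 0.44) and Mpeg1 at 1.90 (SE 0.77, edgeR adjusted p 0.24).

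The lists of tissue macrophages and monocytes had medians nearer 0, and the sign of both turned without mice 3 and 4. Of 11 tested tissue macrophage genes none passed, with a median of -0.14 and 3 positive estimates over 7 mice and a median of 0.03 and 7 positive estimates without mice 3 and 4, and the most abundant were Cbr2 at -1.89 (SE 0.79, edgeR adjusted p 0.26) and Maf at -0.01 (SE 0.15, edgeR adjusted p 0.97). Of 5 tested monocyte genes none passed, with a median of 0.05 that became -0.12 without mice 3 and 4, and the most abundant were Plac8 at -1.33 (SE 0.80, edgeR adjusted p 0.41) and Fn1 at -0.23 (SE 0.23, edgeR adjusted p 0.64). Plac8 passed without mice 3 and 4, with a log2 fold change of -1.97 (SE 0.42, edgeR adjusted p 0.048). Cbr2 and Plac8 followed the 8 markers no more than Itgam did, with an r of -0.32 and -0.33. These were the lowest r of their lists. Among tissue macrophage genes r reached 0.87 for Ms4a7 and 0.79 for Mrc1, and among monocyte genes 0.32 for Vcan. These last 3 genes were picked afterwards.

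**Figure D4:**
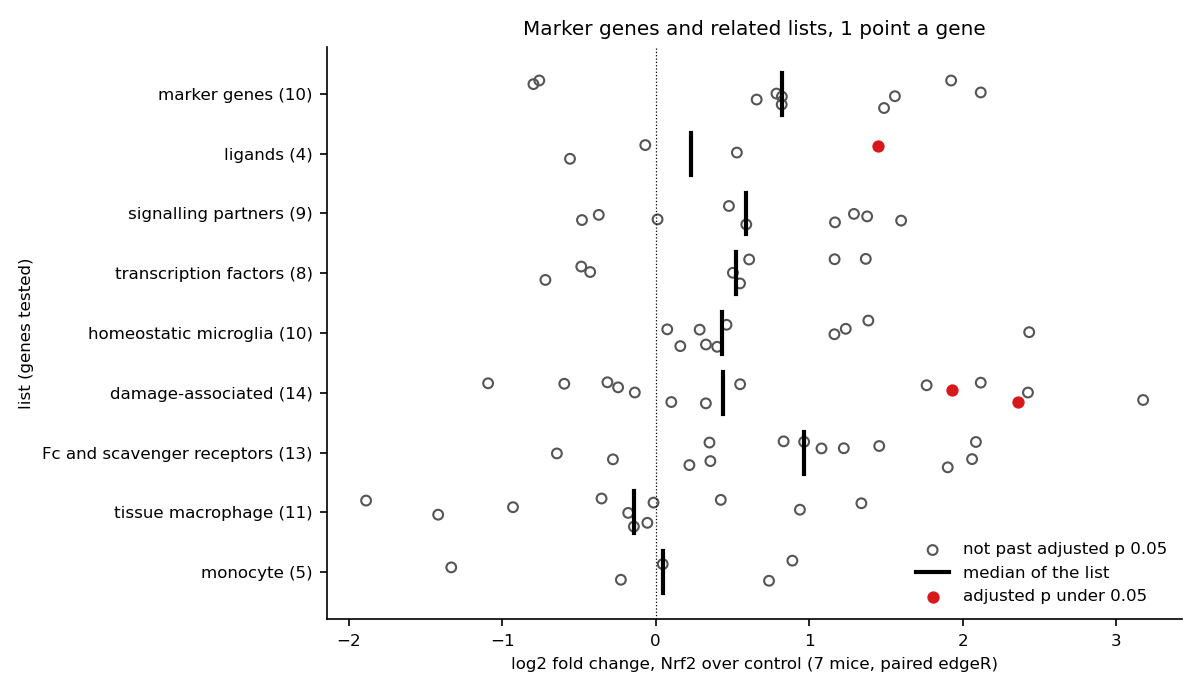
Log2 fold change (Nrf2 over control, paired edgeR) of each tested gene in the marker list and 8 related lists, with the median of each list as a black bar and genes past an adjusted p of 0.05 in red. The medians run from -0.14 for tissue macrophage genes to 0.97 for Fc and scavenger receptors, and the red points are Csf1, Lpl and Ctsd.

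Other cell types that an eyecup can hold moved with the groups or with single libraries. The summed level of 10 photoreceptor genes was 18.004 to 137 CPM in Nrf2 and 48.4 to 1229 CPM in control libraries, all 10 estimates were negative, and Gnat2 and Opn1sw passed the test, of which only Gnat2 passed without mice 3 and 4. For 7 genes of red blood cells the sum was 341 to 1376 CPM in Nrf2 and 556 to 3745 CPM in control libraries, and the 6 tested had negative estimates with none past the threshold. Granulocytes, which also make Lyz2 and Itgam, had markers near 0, with a sum of 0.569 to 4.05 CPM in Nrf2 and 0.756 to 4.80 CPM in control libraries over 8 genes, and with Elane at 0 in all 14. The library Nrf2 2, which was among the highest for Ptprc and Adgre1, also had the highest sums of T and natural killer cell genes (25.9 CPM, against at most 7.74 in the other libraries) and of dendritic cell genes (28.3 CPM, against at most 11.8). Among 9 fibroblast genes the collagen gene Col6a3 was higher in Nrf2 eyes (log2 fold change 2.24, edgeR adjusted p 0.0093). The sum of the 9 genes was 451 to 1358 CPM in Nrf2 libraries, with a median of 771. In control libraries it was 197 to 1031 CPM, with the higher median of 965, and control 6 was the library at 197. Pearson's r with the mean of the 8 markers on log2 CPM over the 14 libraries differed within these lists. Among fibroblast genes it was highest for Dcn and Lum at 0.70, Col1a1 at 0.66 and Col6a3 at 0.61. For the other fibroblast genes it ran from -0.01 for Mgp to 0.44 for Col3a1. For the pigment cell genes Tyrp1, Tyr, Pmel and Mlana it was 0.68, 0.63, 0.61 and 0.61. It was 0.40 for Dct, 0.21 for Kit and -0.20 for Sox10. None of the 7 genes of the pigment cell list passed the test. Apart from Col6a3, the genes given with an r here were picked afterwards. The part of photoreceptor, blood, lymphoid, fibroblast and pigment cell RNA in the results above was not tested.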

How the data were processed

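The authors amplified RPE RNA of the 14 eyes with a low-input kit and sequenced it in 2 runs, which the labels do not assign to libraries. The table deposited by the authors holds estimated counts per gene as whole numbers, with no normalization. Their methods name alignment to mm10 with Ensembl release 91 and estimation with Salmon (version 0.9.1 per the submitters' processing notes), which divides reads between similar transcripts by a model. Columns were assigned to groups and mice by their labels, which list 7 pairs, a number above that named for this comparison in the methods of the study. The labels were followed, and the pair not counted there is not known.

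The vector transcript NFE2L2 was kept in library totals and left out of the test. Positions and exon lengths are from GENCODE M21 (GRCm38). Groups were compared with edgeR 4.0.16 in R 4.3.3 and its quasi-likelihood test, fitted with a term for each mouse and 1 for the vector, after TMM scaling and a filterByExpr minimum count of 10. Benjamini-Hochberg adjustment was over all 16289 genes kept, with 0.05 as the threshold. SE were derived from the F statistic, with 6 residual degrees of freedom and 2.68 from the prior. An exact sign-flip permutation test over 128 patterns was run on the differences in log2 CPM (prior count 2) within mice. The labels number the eyes by animal, which gives the pairing, and the correlation of deviations from the group means within a mouse ranged from -0.34 to 0.35 over 14932 genes with a mean of at least 1 CPM. The fit was tested on simulated data.

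As alternatives, the fit was repeated without the mouse term, with RLE or upper-quartile scaling, with DESeq2 1.42.0, with voom and quality weights (limma 3.58.1), with no filter or a mean count of at least 10, at a threshold of 0.01, and without each mouse or mice 3 and 4. Added after seeing the data were edgeR without its legacy option, library sizes over kept genes, no mouse term without control 3 and Nrf2 4, and DESeq2 without mice 3 and 4.

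The 10 markers and all lists were chosen with earlier results of these data known. The genes named are the 10 markers, the vector transcript, list genes past the threshold (at most 4 a list, or the 2 most abundant where none passed) and the 10 genes with the highest Pearson's r with the mean of the standardized markers, besides genes that overlap or nearly equal a marker in sequence. Some genes that meet this rule are not reported here. Any further gene is marked in the text as picked afterwards. Reads were amplified and carry no molecular identifiers, so total counts overstate the number of molecules sampled.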

Additional observations from a re-analysis of the deposited data

Results flagged for a closer look

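Dixon's 95% criterion for 7 values was applied to CPM in 20 sets of 7 libraries (10 markers in 2 groups). Normally distributed values pass it by chance in about 1 of 20 sets, and CPM need not be normal. The flags depend on the scale, and those on log2 CPM are not given. In 6 of the 20 sets, 1 library stood apart from the others of its group by more than this criterion. In all 6 it was control 3, the highest of the control libraries. It held Trem2 at 18.99 CPM, Tyrobp at 25.98 CPM, Lyz2 at 39.5 CPM, Cd68 at 29.3 CPM, Adgre1 at 6.02 CPM and Aif1 at 4.99 CPM. Control 3 also held the vector transcript at 1163 CPM, above the 175 CPM of the next control library. The 6 genes vary together over the libraries, so the 6 flags are not independent of each other.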

How the results depend on the processing

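The number of markers called was 0 over 7 mice in edgeR and 0 with no replicate block for mouse, RLE or upper-quartile normalization, voom, no filter, a mean count filter, edgeR without its legacy option, library sizes over kept genes, a threshold of 0.01, and without mice 3 and 4. It was 3 with DESeq2, 4 with no replicate block and without control 3 and Nrf2 4, and 6 with DESeq2 without mice 3 and 4, and it ranged from 0 to 1 when each mouse was left out, the 1 being Itgam without mouse 4. Markers without overlap between the groups numbered 0 over 7 mice and 2 (Trem2 and Lyz2) without mice 3 and 4. The median log2 fold change of the 10 markers was 0.82, it was 0.93 with no replicate block, and over all settings it ranged from 0.51 (voom) to 1.26, within 1 SD of its spread between mice. No marker changed direction in any setting. For list genes past the threshold, 108 further fits kept the call and 25 lost it, which touched Csf1 (without mouse 1 or 7), Ctsd, Gnat2, Rpe65 and Opn1sw. Over all genes the calls numbered 559 in the main test, 1100 with no replicate block, 1943 with DESeq2, 2594 with voom, 347 without a filter, 1532 with no replicate block and without control 3 and Nrf2 4, 2656 with DESeq2 without mice 3 and 4, and 111 to 2052 when each mouse was left out. The causes of these differences were not tested. Since 2 sequencing runs could not be assigned to libraries, no value within a run was had.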

Other observations

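Pairing the levels of Itgam with those of its closest gene, the alcohol dehydrogenase Adh6a, gave 8.62 and 8.27 CPM in control 4, the lowest library of both, and 164 and 239 CPM in control 6, the highest library of both. Adh6a and Itgam thus spanned the same libraries in the same order at their ends (Pearson's r on log2 CPM 0.99, 14 libraries), and Adh6a had a log2 fold change of -1.04 (edgeR adjusted p 0.47). The pair was noticed in these data and was not tested further.

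Lcp1, an actin-bundling protein of white blood cells, came closest to the threshold among the Fc and scavenger receptors and related genes. It was at 12.6, 19.8 and 39.3 CPM in the lowest, median and highest Nrf2 library and at 1.73, 5.04 and 18.1 CPM in the lowest, median and highest control library. Its log2 fold change was 2.06 (SE 0.48, edgeR adjusted p 0.056), and it was 2.45 without mice 3 and 4 (edgeR adjusted p 0.032). Fcgr2b, an inhibitory Fc receptor, had a log2 fold change of 2.09 (SE 0.70, edgeR adjusted p 0.17), and 2.47 without mice 3 and 4 (edgeR adjusted p 0.040). Clec7a, a receptor for fungal glucans that is also induced in damage-associated microglia, had 2.12 (SE 0.74, edgeR adjusted p 0.18), and 2.57 without mice 3 and 4 (edgeR adjusted p 0.040). These 3 genes were singled out after their values had been seen.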
